A study of Homo sapiens with 4 samples.

Results

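The genes described here encode 9 proteins that turn farnesyl diphosphate into cholesterol by way of squalene: FDFT1, SQLE, CYP51A1, MSMO1, HSD17B7, ERG28, EBP, SC5D and DHCR7. They were taken by name from a table of 16174 genes, and all 9 were listed above 0 in every library. The names were chosen with the values of these libraries in view. The differences between days and between guides given below therefore describe the genes. Where a fit over all genes includes the members, no test result is read for them. The cells were H9, a long-established embryonic stem cell line kept in the primed state. A piggyBac vector gave them dCas9-KRAB, a Cas9 that cannot cut DNA joined to the KRAB repressor, which doxycycline switches on. They also carried either 4 pooled guides against the long non-coding RNA gene SNHG26 or control guides without a target. Both arms received doxycycline, and RNA was taken after 2 or 3 days. The 4 libraries are therefore SNHG26 guides on day 2, SNHG26 guides on day 3, control guides on day 2 and control guides on day 3, with 1 library each. No library without doxycycline is analysed here, and the labels give puromycin selection of the transfected cells and name no clone. They do not say whether the libraries came from separate cultures.

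Cholesterol is made from acetyl-CoA through mevalonate to farnesyl diphosphate, and FDFT1 commits that intermediate to sterols. Squalene is then oxidised, cyclised to lanosterol and trimmed of methyl groups before its double bonds are moved and reduced. When membrane sterol is low, SCAP escorts the transcription factor SREBP-2 from the endoplasmic reticulum to the Golgi, where it is cleaved and freed to switch on genes of the pathway, often together with NF-Y and Sp1. When sterol is plentiful, INSIG proteins hold SCAP back. Embryonic stem cells divide quickly and need sterol for new membrane.

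Values are TPM, in which reads are set against gene length and against the total of the library. For ERG28 and HSD17B7, TPM matched whole reads within 0.001 read when length was the full distance from gene start to gene end, introns included. TPM here therefore ranks a short gene above a long gene with equal reads. For the other 7 members the full span gives only an upper bound on reads. Total reads by that bound were 1044055 and 1220265 with SNHG26 guides (day 2, day 3) and 947338 and 1135936 with control guides. Both day 3 libraries were therefore deeper by that bound than both day 2 libraries. Pluripotency markers summed to between 1662 and 1900 TPM, led by POU5F1 at 1050 to 1212 TPM, while ZIC2 was listed at 0 in all 4 libraries. The sum hides changes both ways between days. POU5F1, SOX2, SALL4 and PODXL were higher on day 3 in both arms, and DNMT3B, TERF1 and DPPA4 were lower. NANOG, LIN28A and L1TD1 went opposite ways in the arms. DNMT3B was at 6.92 and 3.17 TPM with SNHG26 guides (day 2, day 3) and at 11.7 and 6.52 TPM with control guides. Of the markers of other cells, EOMES, FOXA2 and APOA1 were listed at 0 throughout, MIXL1 and KRT7 stayed at or under 1.98 TPM, and the fibroblast markers COL1A1 and THY1 summed to 57.6 to 88.6 TPM. NES, which stem cells also express, was at 17.1 to 24.5 TPM. The targeted gene SNHG26 was at 0 and 0.933 TPM with its guides (day 2, day 3) and at 2.98 and 4.03 TPM with control guides. By the upper bound these values rested on few reads, at most 0, 8.56, 22.2 and 35.9 in the same order.

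The promoters of the members were examined because sterol-responsive genes are known for particular short motifs. RefSeq windows (GRCh38.p14) were found for 7 of the 9 members, and the 250 bases before each gene start were searched on both strands. The letters CCAAT, the box bound by NF-Y, were present for 6 of those 7 genes and in 7 of their 9 windows, against 32.0% of 35116 windows of the same length. The windows of SC5D overlap and share their CCAAT match, which is counted in both. MSMO1 had 4 matches, ERG28 and EBP 3 each, and DHCR7 2, whereas 9.53% of all windows had at least 2. CYP51A1 had none. TCACNCCA, a core of the sterol regulatory element, was found only before MSMO1 among the 7, and in 3.2% of all windows. GGGCGG, the GC box bound by Sp1, was found for all 7 genes, in 8 of their 9 windows, and in 42.6% of all windows. CACGTG, an E-box, was found for SC5D alone and in 6.34% of all windows. Overlapping matches were counted each, and a match is only a run of letters in the window. The stretches of CYP51A1 and of the second start of DHCR7, which hold no CCAAT, are not printed. The stretches below all hold CCAAT. They are shown because their genes differ in the number of matches while sharing the pattern of levels described next. They are the parts of the windows outside annotated exons of coding genes, on the strand of the gene, with CCAAT or its complement ATTGG and any TCACNCCA in capitals. MSMO1 (chr4:165327419-165327622, plus strand) holds 3 of its 4 CCAAT matches and the sterol element core in this stretch. DHCR7 (chr11:71448436-71448643, minus strand) holds its 2, and HSD17B7 (chr1:162790452-162790701, plus strand) its single match. The windows of ERG28 and EBP lie within annotated exons and are given by their matches only.
MSMO1: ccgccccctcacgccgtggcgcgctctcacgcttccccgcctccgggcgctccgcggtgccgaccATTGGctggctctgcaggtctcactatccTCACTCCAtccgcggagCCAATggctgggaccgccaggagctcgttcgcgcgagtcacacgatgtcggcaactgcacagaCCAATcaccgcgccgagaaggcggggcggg
DHCR7: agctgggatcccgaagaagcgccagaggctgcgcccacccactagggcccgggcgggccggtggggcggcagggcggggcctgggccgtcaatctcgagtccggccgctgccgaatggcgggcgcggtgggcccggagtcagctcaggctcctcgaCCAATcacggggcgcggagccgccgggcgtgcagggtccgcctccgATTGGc
HSD17B7: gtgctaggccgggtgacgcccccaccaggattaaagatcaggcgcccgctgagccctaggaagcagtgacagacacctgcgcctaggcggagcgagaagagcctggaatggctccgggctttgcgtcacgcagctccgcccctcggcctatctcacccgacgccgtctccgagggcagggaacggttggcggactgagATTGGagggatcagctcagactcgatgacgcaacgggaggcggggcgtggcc

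**Figure D1:**
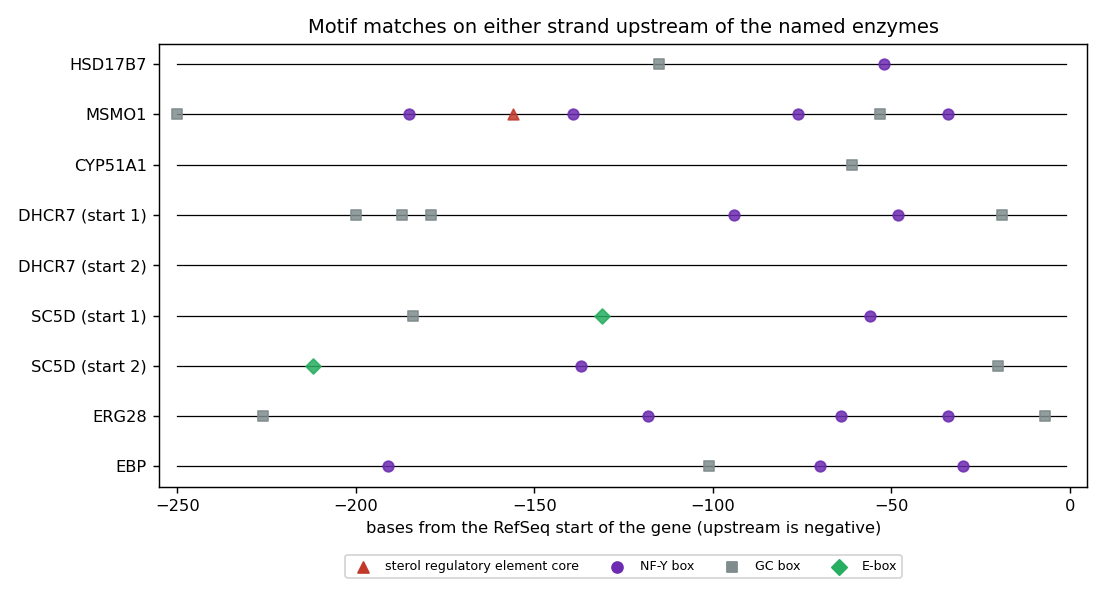
Positions of 4 motifs, on either strand, in the 250 bases before each RefSeq gene start of the 7 members with a window; the x axis is the distance in bases from the start to the first base of the match. MSMO1 carries 4 NF-Y boxes and the only sterol regulatory element core, and the second starts of DHCR7 and SC5D are shown as separate lines.

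All 9 members were lower on day 3 than on day 2 in both guide arms. That direction in both arms was shared by 24.8% of the 8274 genes whose mean TPM was 1 or more. Within the SNHG26 guide arm alone 45.4% of all genes were lower, and within the control arm 50.9%. For 8 of the 9, both day 3 values lay below both day 2 values, against 18.4% of all genes, and CYP51A1 was the exception. A day 3 value at least 1.5-fold lower, on TPM + 1, was reached in both arms by 6 of the 9, against 5.49% of all genes. It was reached by 6 with SNHG26 guides (18.8% of all genes) and by 8 with control guides (20.9%). The median log2 difference over the members was -0.79 with SNHG26 guides and -0.96 with control guides, beside 2.4e-05 and -0.02 over all genes tested. Since the members were chosen on these values, nothing about chance is read from the comparison. The summed fibroblast markers were highest in the control library of day 3, at 88.6 TPM against 57.6 to 62.5 TPM in the others. THY1, which primed stem cells also express, made up that difference, at 84.4 TPM against 54.4 to 58.4 TPM. COL1A1 was at 4.21 TPM there and at 2.98 to 4.16 TPM in the others. The part of these markers in the result was not tested. In whole-culture RNA, fewer cells that express a gene and less RNA per cell cannot be told apart.

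**Figure D2:**
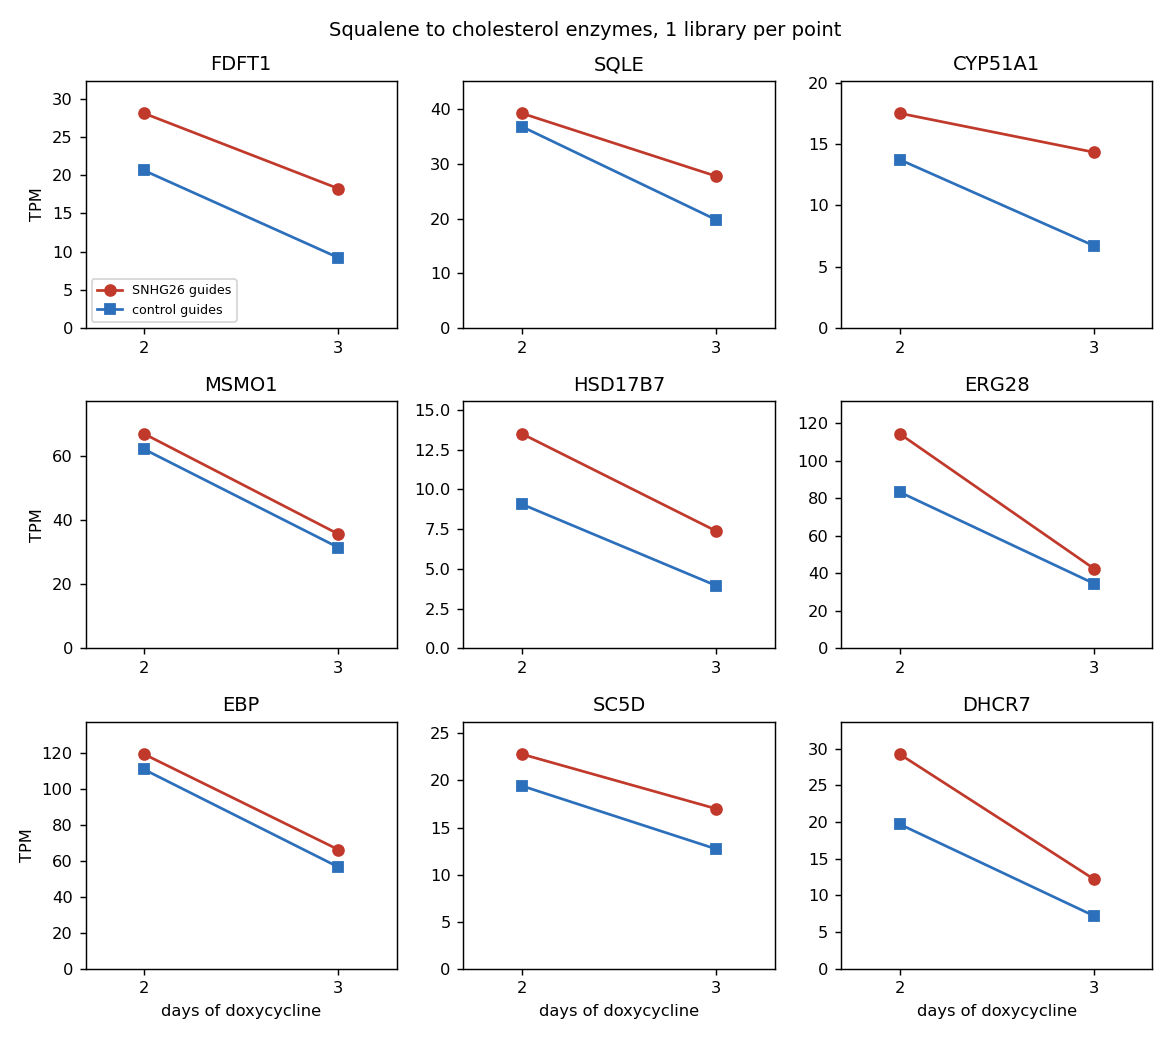
TPM of each of the 9 members on day 2 and day 3 of doxycycline, with 1 library per point and a line for each guide arm; every y axis starts at 0. In each panel both lines go down from day 2 to day 3 and the SNHG26 guide line lies above the control line.

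FDFT1, squalene synthase, joins 2 molecules of farnesyl diphosphate and is the branch point into sterols (chromosome 8, 11795573 to 11839395, plus strand). It was at 28.1 and 18.3 TPM with SNHG26 guides on day 2 and day 3, and at 20.6 and 9.20 TPM with control guides. The control day 3 library was the lowest, at 44.6% of its day 2 value, while the SNHG26 guide arm kept 64.9%. Reads by the upper bound were at most 169.

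SQLE, squalene epoxidase, adds oxygen to squalene in a step that limits the flow to sterols (chromosome 8, 124998497 to 125022283, plus strand). Its levels were 39.3 and 27.7 TPM with SNHG26 guides and 36.8 and 19.8 TPM with control guides. The day 2 libraries were close to each other and the day 3 libraries lay apart, at 70.7% and 53.7% of their day 2 values. Mean levels were 38.0 ± 1.72 TPM on day 2 and 23.8 ± 5.64 TPM on day 3 (SD, n = 2, with 1 library of each arm).

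CYP51A1, the cytochrome P450 that removes the 14-methyl group of lanosterol, is listed on chromosome 7 from 92084987 to 92134803 on the minus strand. It was at 17.5 and 14.3 TPM with SNHG26 guides and at 13.8 and 6.71 TPM with control guides. The day groups overlapped here, because the SNHG26 guide library of day 3 stood above the control library of day 2. The SNHG26 guide arm kept 81.8% of its day 2 value, the highest share among the members in that arm, and the control arm 48.8%. CYP51A1-AS1, listed on the opposite strand with an overlap of 241 bases, was at 25.8 TPM in the control library of day 3 and at 0 in the other libraries. Whether counting used strand is not given in the sources used here, so the CYP51A1 value in that library is uncertain.

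MSMO1 oxidises the methyl groups at carbon 4 of the sterol ring, and its gene is listed on chromosome 4 from 165327667 to 165343164 on the plus strand. Its levels were 66.9 and 35.6 TPM with SNHG26 guides and 62.1 and 31.4 TPM with control guides. The arms were nearly alike on each day, and the day 3 values were 53.2% and 50.6% of the day 2 values. The mean was 64.5 ± 3.40 TPM on day 2 and 33.5 ± 2.97 TPM on day 3 (SD, n = 2), a log2 difference of -0.93 (SE 0.20). Here and below, SE is that of the limma fit with its eBayes prior, which took the 2 arms as replicates of a day. For the members without an SE in their own paragraphs it was 0.44 (CYP51A1), 0.42 (FDFT1), 0.41 (HSD17B7), 0.38 (DHCR7), 0.26 (SQLE) and 0.26 (ERG28).

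HSD17B7, the keto reductase of the same demethylation cycle, is listed on chromosome 1 from 162790702 to 162812823 on the plus strand. It was the lowest member, at 13.5 and 7.38 TPM with SNHG26 guides and 9.08 and 3.95 TPM with control guides. These were 41, 25, 25 and 13 reads in the same order. The exact Poisson 95% intervals, which cover counting error only, ran from 29.4 to 55.6 reads in the highest library and from 6.92 to 22.2 in the lowest. The intervals of the day 3 and day 2 libraries overlapped within each arm, in reads and on the TPM scale. Related pseudogene copies of HSD17B7 exist in the genome and are not analysed here, so some of its reads may belong to them.

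ERG28 is a scaffold rather than an enzyme, and tethers the demethylation enzymes to the membrane (chromosome 14, 75649791 to 75660876, minus strand). Its levels were 114 and 42.4 TPM with SNHG26 guides and 83.3 and 34.5 TPM with control guides. In reads these were 174, 72, 115 and 57. The day 3 intervals, 56.3 to 90.7 reads and 43.2 to 73.9 reads, lay below the day 2 intervals of the same arm. Those ran from 149.1 to 201.9 and from 94.9 to 138.0 reads, and the order was the same on the TPM scale. Here too the intervals cover counting error only, with 1 library each. They do not test the day difference, since ERG28 was chosen with these values in view. On day 3 ERG28 stood at 37.1% of its day 2 value with SNHG26 guides, the lowest share of any member in that arm, and at 41.4% with control guides. TTLL5 and FLVCR2, which span the gene on the other strand, were at or under 0.756 TPM.

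EBP, the isomerase that moves the double bond from position 8 to position 7 of the ring, is listed on chromosome X from 48521799 to 48528716 on the plus strand. It had the highest TPM of the members, at 119 and 66.2 with SNHG26 guides and at 111 and 56.5 with control guides. The 4 values formed a pair on each day, with means of 115.1 ± 6.01 TPM and 61.4 ± 6.84 TPM (SD, n = 2) and a log2 difference of -0.90 (SE 0.18). EBP also has the shortest span, at 6918 bases.

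SC5D, the desaturase that adds the double bond at carbon 5, is listed on chromosome 11 from 121292681 to 121313410 on the plus strand. It was at 22.8 and 17.0 TPM with SNHG26 guides and at 19.4 and 12.7 TPM with control guides. The log2 difference between days, averaged over the arms, was -0.49 (SE 0.27), and it was -0.29 without the control library of day 3. With all 4 libraries it was the smallest of the members, but without that library CYP51A1 was smaller, at -0.11.

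DHCR7, the reductase whose loss causes Smith-Lemli-Opitz syndrome, removes the double bond at carbon 7 (chromosome 11, 71428193 to 71452868, minus strand). Its levels were 29.2 and 12.2 TPM with SNHG26 guides and 19.7 and 7.20 TPM with control guides. Both day 3 libraries were far below both day 2 libraries, at 41.7% and 36.6% of the day 2 values of their arms. DHCR7-DT, a non-coding gene that is named as the divergent transcript of DHCR7 and is listed on the other strand, was at 90.5, 59.5, 82.0 and 46.3 TPM in the same order of libraries. It lies wholly inside the listed span of DHCR7 (3624 bases), so without strand its reads and those of DHCR7 cannot be told apart.

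By TPM the members kept the order EBP, ERG28, MSMO1 and SQLE for the 4 highest, and HSD17B7 for the lowest, in all 4 libraries. Means over the 4 libraries were 88.2, 68.7, 49.0 and 30.9 TPM for the first 4, then 19.1 for FDFT1, 18.0 for SC5D, 17.1 for DHCR7, 13.1 for CYP51A1 and 8.48 for HSD17B7. The ranges of neighbours in this order overlapped, and FDFT1, SC5D, DHCR7 and CYP51A1 changed places between libraries. The order depends on the span used: FDFT1, lower than 4 other members by TPM, had the highest upper bound of reads (a mean of 116), and EBP, first by TPM, had a mean bound of 84.3 reads.

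The difference between days was more negative in the control arm for 8 of the 9 members, ERG28 being the exception. It was more negative in that arm for 54.9% of all genes, a share that includes genes higher on day 3. With control guides the log2 differences ran from -1.34 (DHCR7) to -0.57 (SC5D), and with SNHG26 guides from -1.41 (ERG28) to -0.27 (CYP51A1). The arms lay farthest apart for CYP51A1, at -0.27 and -0.94, and for FDFT1, at -0.60 and -1.08. Each of these is 1 library against 1, and whether the arms differ was not tested. Averaged over both arms, the median over the members was -0.90. Without the control library of day 3 it was -0.53.

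**Figure D3:**
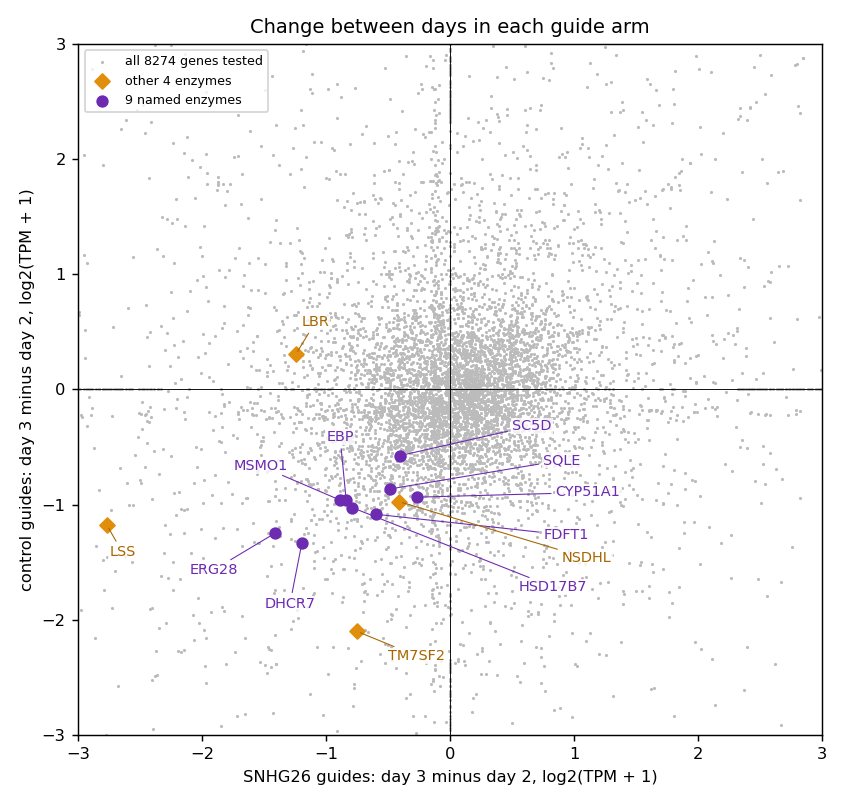
Difference between day 3 and day 2 on log2(TPM + 1) in the SNHG26 guide arm (x axis) against the control arm (y axis), with grey points for genes tested, of which 834 lie outside the axes, circles for the 9 members and diamonds for 4 other enzymes of the route. The members lie below 0 on both axes, between -1.41 and -0.27 on the x axis and between -1.34 and -0.57 on the y axis.

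With the days held apart, all 9 members were higher with SNHG26 guides than with control guides on both days, as were 24.8% of all genes tested. On day 2 the ratio of TPM ran from 1.07 (SQLE) to 1.49 (HSD17B7), and no member reached a 1.5-fold difference on TPM + 1, which 18.4% of all genes did. On day 3 it ran from 1.13 (MSMO1) to 2.14 (CYP51A1), and 4 members reached 1.5-fold (FDFT1, CYP51A1, HSD17B7 and DHCR7), against 20.1% of all genes. FDFT1 stood at 1.36 times the control level on day 2 and 1.98 times on day 3. EBP and MSMO1 had the lowest ratios on day 3, at 1.17 and 1.13, and both were at 1.08 on day 2, where SQLE was lower. The median log2 difference was 0.33 on day 2 and 0.47 on day 3, beside 0 and 0.03 over all genes. The groups of guides overlapped for 8 members, since the day 3 library of the SNHG26 arm lay below the day 2 control library. CYP51A1 alone had both SNHG26 guide values above both control values, as did 16.1% of all genes. The full order SNHG26 guides day 2, control day 2, SNHG26 guides day 3, control day 3 was shown by 8 of 9 members and by 4.54% of all genes. Being lower on day 3 in both arms and higher with SNHG26 guides on both days held for all 9 and for 8.19% of all genes.

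The median guide difference over both days was 0.37. It was 0.04 without the SNHG26 guide library of day 2, 0.80 without that of day 3, 0.99 without the control library of day 2 and -0.05 without that of day 3. Each of these leaves unequal days in the arms, and the day difference enters the value. In the limma fit across 8274 genes, 0 of the 9 members passed an adjusted p of 0.05 between the days (0.0121% of all genes passed as lower and 0.0242% as higher) or between the guides (0% in either direction). At an unadjusted limma p under 0.05, 3.17% of all genes were lower on day 3 and 3.44% higher. Between guides, 2.02% of all genes were higher with SNHG26 guides and 2.05% lower at that threshold. Members are not counted at the unadjusted threshold, because they were known by these contrasts. For the same reason nothing is read from their adjusted counts. No adjusted p under 0.05 was found between the guides in any gene, with 337 at an unadjusted p under 0.05.

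Of the other genes of the route, LSS, TM7SF2, LBR and NSDHL are given here. LSS, which cyclises oxidised squalene to lanosterol, was at 18.2 and 1.81 TPM with SNHG26 guides and at 27.9 and 11.7 TPM with control guides. It was lower on day 3 in both arms like the members, but lower with SNHG26 guides on both days. NSDHL, the decarboxylase of the demethylation cycle, had the same day directions, at 5.29 and 3.72 TPM against 5.41 and 2.26 TPM, with day 2 levels that were nearly equal.

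TM7SF2 and LBR both reduce the double bond at carbon 14, and LBR is also a receptor of the inner nuclear membrane. TM7SF2 was at 28.4 and 16.5 TPM with SNHG26 guides and at 52.4 and 11.4 TPM with control guides, on at most 29.6 reads. LBR was at 19.4 and 7.60 TPM with SNHG26 guides and at 7.55 and 9.55 TPM with control guides. Among the members and these 4 genes it was the only one that was not lower on day 3 in both arms. Of these 4 genes, 3 were lower on day 3 in both arms (24.8% of all genes tested). The same 3 had both day 3 values below both day 2 values (18.4%). In limma, 0 of the 4 passed between days (smallest adjusted p 0.628) or between guides (smallest adjusted p 0.935). At an unadjusted p under 0.05, 1 was lower on day 3 (3.17% of all genes tested) and 0 differed between guides.

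Upstream of squalene, 8 of 9 mevalonate enzymes passed the filter of a mean of 1 TPM. Lower on day 3 in both arms were 6 of the 8, against 24.8% of all genes tested. The median log2 differences of the 8 were -1.21 with SNHG26 guides and -1.69 with control guides. FDPS, which makes the farnesyl diphosphate that FDFT1 uses, was at 217 and 107 TPM with SNHG26 guides and at 217 and 78.3 TPM with control guides. ACAT2, the thiolase that opens the pathway, was at 161 and 58.6 TPM and at 137 and 25.01 TPM in the same order. MVD, the decarboxylase, was at 94.5 and 35.1 TPM and at 92.1 and 16.8 TPM. For all 3 genes both day 3 libraries lay below both day 2 libraries, and the control library of day 3 was the lowest, as in the members. In limma, 0 of the 8 passed between days (smallest adjusted p 0.241) and 0 between guides (smallest adjusted p 0.958). At an unadjusted p under 0.05, 5 were lower on day 3 (3.17% of all genes tested) and 0 differed between guides.

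Of 13 genes of sterol sensing and uptake, 7 passed the filter. Lower on day 3 in both arms were 3 of the 7, against 24.8% of all genes tested. The median log2 differences of the 7 were -0.0048 with SNHG26 guides and -0.17 with control guides. NPC2, a lysosomal sterol carrier, was at 146 and 134 TPM with SNHG26 guides and at 145 and 128 TPM with control guides, nearly level across the 4 libraries. STARD4, a cytosolic sterol carrier, was at 13.5 and 7.65 TPM and at 12.1 and 6.49 TPM, with day groups that did not overlap. INSIG2, which retains SCAP in the endoplasmic reticulum, was higher on day 3, at 1.98 and 8.29 TPM and at 1.07 and 9.16 TPM. Its reads by the upper bound ran from 3.00 to 30.7. INSIG1, a relative of INSIG2 and itself a known target of SREBP, was singled out after its values were seen. It was listed at 2.94 and 11.0 TPM on day 2 (SNHG26 guides, control guides) and at 0 in both day 3 libraries. SREBF2, which encodes SREBP-2 and was also singled out after its values were seen, was listed at 0 or under 0.1 TPM in 3 libraries and at 4.26 TPM in the control library of day 2. In limma, 0 of the 7 passed between days (smallest adjusted p 0.34) and 0 between guides (smallest adjusted p 0.938). At an unadjusted p under 0.05, 1 was higher on day 3 (3.44% of all genes tested) and 2 lower (3.17%). Between guides 0 differed at that threshold.

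Of 9 fatty acid genes, 7 passed the filter, with medians of -0.24 and -0.49. Lower on day 3 in both arms were 4 of the 7, against 24.8% of all genes tested. SCD, the stearoyl-CoA desaturase, was at 86.6 and 40.1 TPM with SNHG26 guides and at 70.8 and 26.0 TPM with control guides. Its libraries stood in the same order as those of 8 of the 9 members. ACLY, which supplies cytosolic acetyl-CoA, was at 21.6 and 9.55 TPM and at 16.8 and 5.30 TPM, and FADS1, a desaturase of long chains, at 17.3 and 14.7 TPM and at 19.9 and 13.9 TPM. Of 5 genes of sterol efflux and its regulators, the 3 that passed the filter had medians of 0.10 and -0.17. APOE, which carries sterol out of cells, was at 370 and 301 TPM with SNHG26 guides and at 261 and 232 TPM with control guides. It was higher with SNHG26 guides without overlap, as were NR1H2 and NR1H3, the LXR receptor genes, and 16.1% of all genes tested. NR1H3 was at 2.63 reads by the upper bound in the control library of day 3. Its difference between days went opposite ways in the arms. In limma, 0 of the 10 genes passed in either comparison (smallest adjusted p 0.521 between days and 0.935 between guides). At an unadjusted p under 0.05, 2 fatty acid genes were lower on day 3 (3.17% of all genes tested) and 0 of the 10 differed between guides.

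**Figure D4:**
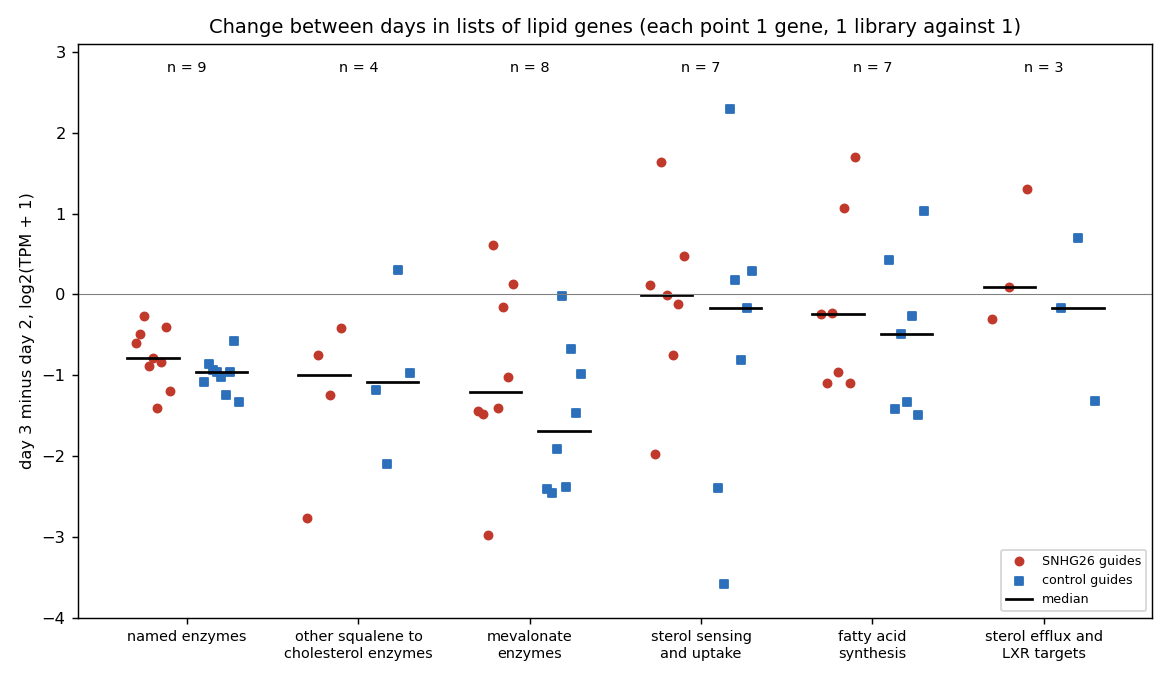
Difference between day 3 and day 2 on log2(TPM + 1), 1 point per gene, with circles for SNHG26 guides, squares for control guides and a black line at each median; n is the number of genes whose mean TPM was 1 or more. The named enzymes all lie below 0, the mevalonate enzymes reach lower values, with medians of -1.21 and -1.69, and the sensing and efflux genes lie on both sides of 0.

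Among the 2028 genes outside the members whose mean TPM was 20 or more, those whose 4 values most resembled the mean pattern of the members included APOC1, TTC4, TMEM97 and FGFBP3. Likeness was the root mean square distance between log2(TPM + 1) values centred on each gene's mean, over 4 libraries. The distances were 0.043 for APOC1, 0.067 for TTC4, 0.088 for TMEM97 and 0.092 for FGFBP3. Those of the members themselves, which formed the mean, ran from 0.11 (HSD17B7) to 0.25 (ERG28). APOC1, an apolipoprotein, was at 266 and 157 TPM with SNHG26 guides and at 217 and 115 TPM with control guides. TMEM97, a membrane protein that binds sterol, was at 51.3 and 32.9 TPM and at 47.0 and 23.8 TPM. With 4 libraries many genes can share a pattern, and no more than the distance is read from it.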

How the data were processed

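Poly(A) RNA was primed with oligo-dT, strand-switched, amplified for 14 PCR cycles and sequenced as long nanopore reads, as the labels' protocols state. No molecular identifiers are described there. The deposited table holds the authors' TPM for each gene and library. The submitters' processing notes name minimap2 2.24-r1122 and GRCh38 without a role; the counting tool, annotation and use of strand are not given in the sources used here. Reads were recovered as TPM times gene span over the commonest such product among genes under 200 bases. Of 13840 genes with a value, 3087 were whole within 0.001 read in every library.

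Libraries were grouped by the guides and days in the labels, which do not say that they came from separate cultures. Differences were taken on log2(TPM + 1), which understates low genes. The fit covered genes whose mean TPM was 1 or more. It used limma 3.58.1 under R 4.3.3, with a trended eBayes prior and Benjamini-Hochberg adjustment at 0.05, for day 3 against day 2 and for guides against guides, without a block. The script was tested on simulated data. Members, lists and motifs were chosen with earlier results of these data known. The genes named are the members, other genes of the route, the 3 highest genes of each list by mean TPM and the 5 nearest patterns, except that some items this rule covers are not reported here. As a check of pairing over 8274 genes, deviations from group means correlated at 0.0464 between libraries of the same day and at -0.0065 between libraries of the same arm. Alternatives were a pseudocount of 0.1 or of 5, median ratio scaling, a mean TPM of 5 or more, dropping the filter, eBayes without a trend, a replicate block and leaving out each library.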

Additional observations from a re-analysis of the deposited data

Results flagged for a closer look

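The genes below were flagged because 1 comparison went in opposite directions in the other factor's groups, with 1 library against 1 each time; the difference was not tested. All values are log2(TPM + 1) differences. Between day 3 and day 2, LBR was at -1.25 with SNHG26 guides and 0.30 with control guides, and NR1H3 at 1.31 and -1.32. Between SNHG26 guides and control guides, on day 2 and day 3 in turn, TM7SF2 was at -0.86 and 0.49, LBR at 1.26 and -0.29, NSDHL at -0.028 and 0.53, FDPS at -0.0022 and 0.44, INSIG2 at 0.53 and -0.13, and FADS1 at -0.19 and 0.071. By the upper bound NR1H3 rested on at most 37.2 reads, INSIG2 on at most 30.7, TM7SF2 on at most 29.6 and NSDHL on at most 28.1. None of the 9 members was among them.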

How the results depend on the processing

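The count of genes changed between days, 3, became 0 with a pseudocount of 0.1 or 5, without a filter, with eBayes without a trend and with a replicate block on the arm, and was 0 in each fit that left out a library (range 0 to 0), where the lone library of a day is assumed to vary like the others. The count between guides was 0 under every alternative run, the replicate block with day included. The members' median difference between days was -0.68 with a pseudocount of 5 and ran from -1.10 to -0.53 when libraries were left out. Their median guide difference ran from -0.052 to 0.99 when libraries were left out, and was negative without the control library of day 3. Leaving out 1 library gave guide differences from -0.15 to 0.71 for SQLE, -0.34 to 0.62 for MSMO1, -0.33 to 1.08 for ERG28, -0.31 to 0.64 for EBP and -0.052 to 1.28 for DHCR7, since unequal days then enter the arms. For each member the day difference stayed negative and the guide difference positive with either pseudocount and with median ratio scaling. With 13 to 174 reads behind the members whose reads are known, counting error alone is wide for HSD17B7. No other call differed under the replicate block.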
